A study of Homo sapiens with 12 samples.

Results

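Oxidative phosphorylation was examined through the mRNA of its nuclear-encoded subunits in docetaxel-sensitive and docetaxel-resistant prostate cancer cells. Members were the genes whose symbol, in the annotation of both array types, begins as a subunit name of complex I (NDUFA, NDUFB, NDUFC, NDUFS or NDUFV), complex II (SDHA to SDHD), complex III (UQCR), complex IV (COX4 to COX8) or complex V (ATP5). This gave 67 genes, read by 100 probe sets, of the 11939 genes with a probe set of their own. Of these, 27 belong to complex I, 3 to complex II, 6 to complex III, 12 to complex IV and 15 to complex V. The other 4 carry such a symbol without being subunits: NDUFB2-AS1 is an antisense RNA, ATP5MC2P1 a pseudogene, ATP5IF1 the inhibitor of the ATP synthase and COX7A2L a factor of respiratory supercomplexes.

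The series compared 4 groups of human cells, each on 3 arrays. DU145 and 22Rv1 are established prostate cancer lines, grown without drug, and DU145-DR and 22Rv1-DR are the lines selected from them for resistance to docetaxel, a taxane that binds microtubules, and grown with it. All 4 groups were kept in RPMI medium with 10% fetal bovine serum. Each comparison of a resistant line with its parent therefore joins selection with the presence of the drug, and the time and dose of exposure and the number of clones were not given in the sources used here. Total RNA of whole cultures was measured, so fewer cells of a kind and less RNA per cell cannot be told apart.

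In the inner mitochondrial membrane, complexes I and II pass electrons from NADH and succinate to ubiquinone, complex III passes them on to cytochrome c, and complex IV to oxygen. Complexes I, III and IV pump protons, and complex V, the ATP synthase, uses the returning protons to make ATP. Most subunits are nuclear genes read in the cytoplasm, while a few core subunits are encoded in mitochondrial DNA and lie outside the rule. Cancer cells differ in how far they rely on this chain or on glycolysis.

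Promoters of this gene class are known for sites of the factors NRF1, GABP (an ETS factor) and YY1. The sequences shown are those of NDUFS7 and UQCRC1, which fell in DU145-DR cells, of UQCR11, whose sign was opposite in the resistant lines, and of NDUFA6, the complex I gene with the largest positive value there. Each is the 250 bases before the start of the gene, 5′ to 3′ on the gene's own strand, from RefSeq (GRCh38.p14). They lie at chr19:1383657-1383906 (NDUFS7, plus strand), chr3:48609647-48609896 (UQCRC1, minus strand), chr19:1605463-1605712 (UQCR11, minus strand) and chr22:42090773-42091022 (NDUFA6, minus strand). Capitals mark the letters GCATGCG (the core of the NRF1 motif) and CCGGAAG (an ETS motif) on either strand. In NDUFS7 the NRF1 letters match on both strands in overlap.

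NDUFS7: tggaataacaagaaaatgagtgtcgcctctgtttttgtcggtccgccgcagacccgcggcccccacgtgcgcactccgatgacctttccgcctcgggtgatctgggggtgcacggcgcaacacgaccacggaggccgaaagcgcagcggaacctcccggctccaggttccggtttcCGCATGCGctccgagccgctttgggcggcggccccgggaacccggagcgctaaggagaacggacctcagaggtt
UQCRC1: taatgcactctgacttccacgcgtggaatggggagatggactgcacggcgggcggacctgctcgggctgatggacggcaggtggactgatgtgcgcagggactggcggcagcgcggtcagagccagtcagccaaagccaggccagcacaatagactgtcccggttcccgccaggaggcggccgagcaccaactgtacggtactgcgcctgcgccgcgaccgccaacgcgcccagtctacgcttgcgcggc
UQCR11: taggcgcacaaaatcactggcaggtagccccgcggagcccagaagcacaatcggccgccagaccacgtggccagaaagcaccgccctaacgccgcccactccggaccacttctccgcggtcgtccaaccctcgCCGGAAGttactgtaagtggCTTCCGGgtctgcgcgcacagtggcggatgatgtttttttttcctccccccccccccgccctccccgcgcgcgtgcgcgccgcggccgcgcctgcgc
NDUFA6: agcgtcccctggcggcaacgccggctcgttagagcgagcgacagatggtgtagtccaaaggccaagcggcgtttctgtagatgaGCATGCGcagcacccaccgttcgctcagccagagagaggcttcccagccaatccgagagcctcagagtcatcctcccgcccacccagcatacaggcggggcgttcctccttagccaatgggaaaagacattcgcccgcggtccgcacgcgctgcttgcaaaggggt

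Over the window of 300 bases from 250 before to 50 after the start, 58 of the 67 members had a RefSeq promoter. The NRF1 letters stood in 11 of them (19%), against 5.77% of the 7889 genes tested that had a promoter and 4.02% of all 27195 promoters. The ETS letters stood in 17 members (29.3%), against 17.0% and 10.6%. The letters AGATGGC, a YY1 motif, stood in 12 members (20.7%), against 7.3% and 5.59%. These YY1 letters lay after the start in NDUFS7, UQCRC1 and NDUFA6, outside the stretch printed. In DU145-DR cells the 11 tested members with the NRF1 letters had a median change of 0.07 and the 46 without them one of -0.19. With and without the ETS letters the medians were -0.18 and -0.21, and with and without the YY1 letters -0.36 and -0.18. In 22Rv1-DR cells these medians were -0.09 and -0.07 for NRF1, -0.09 and -0.07 for ETS, and -0.01 and -0.08 for YY1. These values describe the letters in these windows, and their part in the changes was not tested.

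Values are probe-set intensities, and changes are differences of log2(intensity + 16) between resistant and parental cells, with the standard error (SE) that limma gave over replicates 1 and 2. The arrays of replicate 3 were of a larger type, and they gave 1 more pair of values per line with no test. The threshold for a change was a p under 0.05 after Benjamini-Hochberg adjustment over the 9706 genes tested, 65 of them members. Whether replicates were separate cultures was not given in the sources used here, so the p-values measure the spread between these arrays. The labelled lines were checked against their markers. KLK2, an androgen-regulated kallikrein, read 885 and 826 on the 22Rv1 arrays and 169 and 86.2 on the DU145 arrays, and the caveolin gene CAV1 read 56.9 and 69.1 against 7434 and 10510. The 3 leukocyte markers measured summed to at most 213.8 on any array of replicates 1 and 2, and PTPRC among them was dim in every group.

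In DU145-DR cells 3 subunit genes fell and none rose. They were NDUFS7 of complex I, UQCRC1 of complex III and ATP5F1D of complex V, each lower on all 3 resistant arrays than on the parental array of the same number. The other 62 members did not pass the test. Over all genes tested, 5.52% rose and 5.52% fell.

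NDUFS7 encodes the iron-sulfur subunit that hands electrons to ubiquinone in complex I. Its intensity was 2702, 3104 and 1193 on the 3 DU145 arrays and 1010, 1710 and 491 on the DU145-DR arrays. Both resistant arrays lay below both parental arrays of the same type, and so did the single resistant array of replicate 3. The change was -1.13 ± 0.27 (SE, n = 2 per group; limma adjusted p = 0.0307), with -1.41, -0.85 and -1.25 in the 3 pairs.

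UQCRC1 encodes core protein 1 of complex III. Its intensity was 1687, 1758 and 1082 in DU145 and 929, 861 and 760 in DU145-DR cells. The groups did not overlap within either array type. The change was -0.93 ± 0.19 (SE, n = 2 per group; limma adjusted p = 0.0177), and replicate 3 gave -0.50.

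ATP5F1D encodes the delta subunit in the central stalk of the ATP synthase. Its intensity was 1808, 1938 and 962 in DU145 and 771, 1121 and 644 in DU145-DR cells, again without overlap within an array type. The change was -0.997 ± 0.23 (SE, n = 2 per group; limma adjusted p = 0.0257), and replicate 3 gave -0.57. A second ATP5F1D probe set, prone to cross-hybridization by its name, read 1113, 861 and 300.2 in DU145 and 653, 685 and 265 in DU145-DR cells. It gave -0.54 ± 0.25 (limma adjusted p = 0.257) and -0.17 on replicate 3, and the mean of both probe sets gave -0.77 (limma adjusted p = 0.0522). NDUFS7 and UQCRC1 have 1 probe set each.

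Of 20 settings tried, UQCRC1 passed in 16 and NDUFS7 and ATP5F1D in 10 each. With 1 array of DU145 or DU145-DR left out, the change of NDUFS7 was -0.75 to -1.51, that of ATP5F1D -0.73 to -1.26 and that of UQCRC1 -0.88 to -0.99. Without DU145 replicate 1 or without DU145 replicate 2 no member passed. The members that passed also moved without DU145-DR replicate 1 or 2, which leaves 1 array in that group. The share of all genes passing in these fits is not given, so their calls are not read as a result. Without any 1 array of 22Rv1 or 22Rv1-DR the changes stay as they are and only the estimate of the spread and its degrees of freedom move. UQCRC1 then passed, and NDUFS7 and ATP5F1D had limma adjusted p from 0.0519 to 0.0551.

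**Figure D1:**
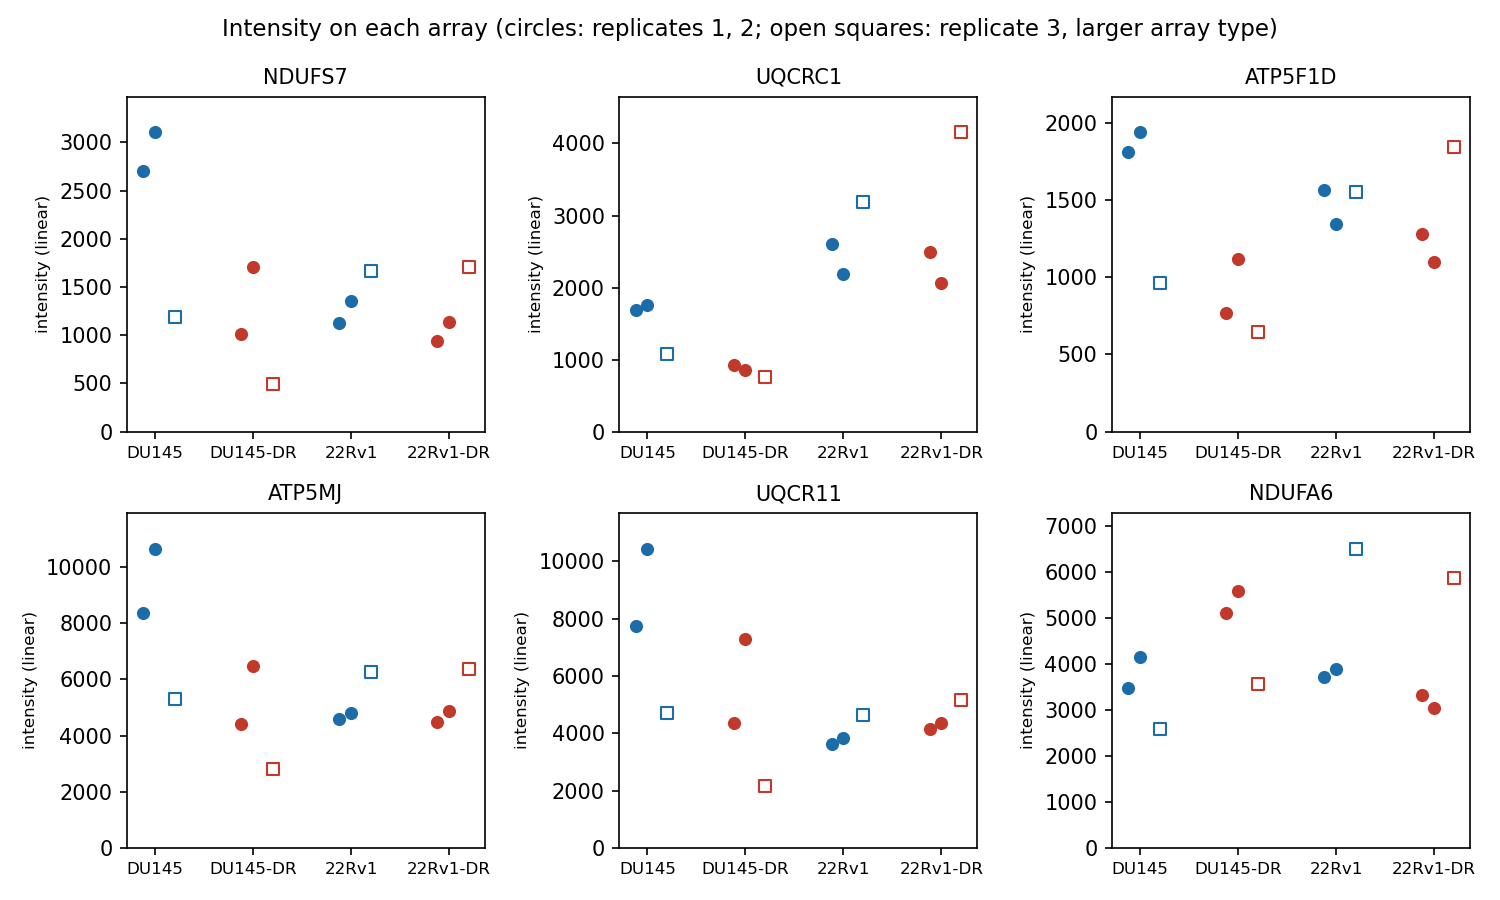
Intensity (linear, probe set of each gene) of 6 subunit genes on all 12 arrays, with circles for replicates 1 and 2 and open squares for replicate 3 on the larger array type. NDUFS7, UQCRC1, ATP5F1D, ATP5MJ and UQCR11 were lower and NDUFA6 was higher in DU145-DR than in DU145 cells within each array type.

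Most of the other members had negative values in DU145-DR cells without passing. The change was negative in 46 of 65 members, against 51.4% of all genes tested. Their median was -0.20, against -0.01 for all genes, and the medians of the 3 pairs were -0.35, -0.09 and -0.22. In 36 members all 3 pairs were negative and in 12 all 3 were positive, where the shares of all genes were 28.9% and 28.7%. The 2 resistant arrays lay below both parental arrays in 17 members and above both in 4, against 19.9% and 22.1% of all genes. By unadjusted p under 0.05, 12 members were lower and 2 higher, where 11.6% of all genes were lower and 12.6% higher.

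The unpaired median moved with the array left out. It was 0.10 without DU145-DR replicate 1, -0.44 without DU145-DR replicate 2, -0.36 without DU145 replicate 1 and -0.02 without DU145 replicate 2, and it was below 0 in each of the 3 pairs. On the deposited scale 61 of the 65 members were brighter on the second DU145-DR array than on the first, by a median of 0.54 (log2), and 62 were brighter on the second DU145 array, by 0.34. Over all genes these medians were 0.16 and 0.19. Other genes differed between the same 2 resistant arrays too: the keratin gene KRT7 read 284 and 2304, and CAV1 read 2817 and 7383. The part of these differences in the result was not tested. In 22Rv1 cells the second array was the brighter one for 33 members, and the mean absolute difference between replicates was 0.138, against 0.350 in DU145 and 0.557 in DU145-DR cells.

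The replicate numbers paired the arrays of a line, and a fit with line and replicate number as a block called more genes of every kind. In that fit 20 members fell and 5 rose in DU145-DR cells, where 16.9% of all genes fell and 18.5% rose. The 20 were 7 genes of complex I (NDUFA3, NDUFA7, NDUFA9, NDUFB1, NDUFS1, NDUFS7 and NDUFV1), SDHA, 3 genes of complex III (UQCR11, UQCRC1 and UQCRC2), COX5A and COX6A1 of complex IV, and 7 genes of complex V (ATP5F1B, ATP5F1D, ATP5MC1, ATP5MC2, ATP5MJ, ATP5PD and ATP5PO). The 5 that rose were ATP5MC3, ATP5PB, NDUFA6, NDUFB4 and NDUFS3. After quantile normalization of the 8 arrays, 15 members fell and 1, ATP5MC3, rose, where 8.18% of all genes fell and 7.59% rose.

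**Figure D2:**
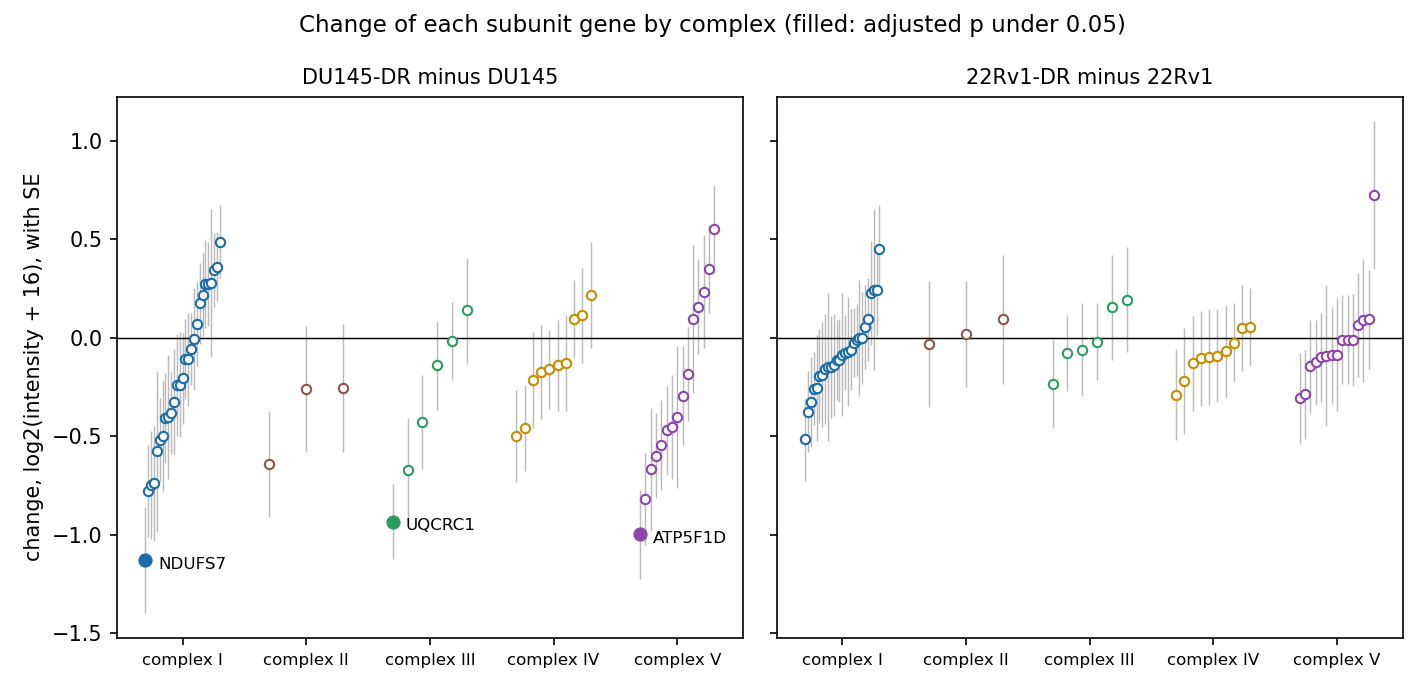
Change of each tested subunit gene, resistant minus parental on the log2(intensity + 16) scale with its SE, by complex and sorted within it, in DU145 (left) and 22Rv1 (right). Filled points passed the test: NDUFS7 (-1.13), UQCRC1 (-0.93) and ATP5F1D (-0.997) in DU145-DR cells, and none in 22Rv1-DR cells.

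Within complex I, 18 of 27 genes were negative in DU145-DR cells, with a median of -0.20. Behind NDUFS7 came NDUFA9, an accessory subunit, whose intensity was 1458 and 1833 in DU145 and 815 and 1098 in DU145-DR cells (-0.78 ± 0.23, limma adjusted p = 0.071, 0.00317 with the block). Its replicate 3 gave -0.40. Other core genes of complex I differed in sign. NDUFV1, which binds the flavin that takes up electrons from NADH, gave -0.52 ± 0.21 (limma adjusted p = 0.176) and -0.04 on replicate 3, and NDUFS1, an iron-sulfur subunit, gave -0.38 ± 0.21 (limma adjusted p = 0.32) and -0.01. Of the 20 settings, NDUFV1 passed in 3 and NDUFS1 in 1, the fit with the block. NDUFV2 gave -0.05 ± 0.18 and -0.28 on replicate 3. NDUFS3 was positive, at 0.36 ± 0.18 (limma adjusted p = 0.261, 0.0299 with the block), with 0.30, 0.43 and 0.59 in the 3 pairs.

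NDUFA6, an accessory subunit of complex I, went the other way. Its intensity was 3492, 4153 and 2592 in DU145 and 5113, 5595 and 3566 in DU145-DR cells, without overlap within an array type. The change of 0.49 ± 0.19 did not pass (limma adjusted p = 0.144, 0.0162 with the block). A second, dimmer probe set of NDUFA6 read 355, 478 and 198 in DU145 and 976, 873 and 335 in DU145-DR cells. Fitted on its own it rose by 1.13 ± 0.20 (limma adjusted p = 0.0118 over the 14813 probe sets tested). This probe set was chosen after its values were seen, as were the next 2.

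Dimmer second probe sets of UQCRB and COX4I1 also rose in DU145-DR cells while the brighter ones did not pass. That of UQCRB, a small subunit of complex III, read 449 and 572 in DU145 and 1209 and 1552 in DU145-DR cells (1.41 ± 0.21, limma adjusted p = 0.00644), against 0.14 ± 0.27 and 0.20 ± 0.25 for its 2 brighter probe sets. That of COX4I1 read 220 and 209 against 422 and 370 (0.83 ± 0.19, limma adjusted p = 0.0337), where the brighter ones gave -0.13 and -0.09. Replicate 3 gave 1.04 for the UQCRB and 1.44 for the COX4I1 probe set. What part of each transcript these probe sets read was not tested. Of the 93 member probe sets tested, 3 rose and 3 fell in DU145-DR cells, against 4.52% and 4.47% of all probe sets. Among the 21 members with several probe sets, all had 1 sign in 16 genes in DU145 and in 12 in 22Rv1.

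Complex II had 3 genes, all negative in DU145-DR cells in all 3 pairs. SDHA, the flavoprotein that oxidizes succinate, read 3692 and 5367 in DU145 and 2257 and 3591 in DU145-DR cells (-0.64 ± 0.27, limma adjusted p = 0.185, 0.00583 with the block), and replicate 3 gave -0.76. The 1 probe set of SDHA read here is of a kind prone to cross-hybridization by its name, so the reading may not be specific. The membrane anchors SDHC and SDHD gave -0.26 ± 0.32 and -0.25 ± 0.33, and on replicate 3 -0.42 and -0.81.

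In complex III, 5 of 6 genes were negative, with a median of -0.28. UQCR11, a small subunit, read 7750, 10441 and 4705 in DU145 and 4360, 7281 and 2150 in DU145-DR cells (-0.67 ± 0.27, limma adjusted p = 0.163, 0.00813 with the block). UQCRC2, core protein 2, gave -0.43 ± 0.24, UQCRQ -0.01 ± 0.20 and UQCR10 -0.14 ± 0.23.

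Complex IV had the smallest median of the 5 complexes, -0.15, and no call. COX6A1 read 9216 and 11911 in DU145 and 6252 and 8780 in DU145-DR cells (-0.50 ± 0.23, limma adjusted p = 0.241, 0.0112 with the block). COX5B had the largest positive value, 0.22 ± 0.27. Complex IV has isoforms restricted to tissues such as muscle. The muscle forms COX6A2 and COX7A1 were dim in every group and were not tested, with COX6A2 between 51.3 and 62.7 on the DU145 and DU145-DR arrays of replicates 1 and 2, near the 25th percentile of those arrays (62.3 to 76.1). The common forms gave -0.14 for COX6B1, -0.16 for COX7A2, 0.11 for COX7B and -0.21 for COX8A in DU145-DR cells. On the larger array, COX4I2, COX6B2, COX7B2 and COX8C read at most 104.7, 34.8, 13.6 and 17.3 in any group.

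Complex V had the lowest median, -0.40. ATP5MJ, a small membrane subunit of the ATP synthase, read 8364, 10661 and 5294 in DU145 and 4420, 6472 and 2798 in DU145-DR cells. The groups did not overlap within an array type, and the change of -0.82 ± 0.23 fell just short of the threshold (limma adjusted p = 0.0604, 0.00344 with the block). The catalytic beta subunit ATP5F1B gave -0.60 ± 0.22 (limma adjusted p = 0.125, 0.00658 with the block), with -0.39 on replicate 3. Its partner ATP5F1A, the alpha subunit, gave -0.18 ± 0.24 and 0.51 on replicate 3.

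The membrane ring of the ATP synthase is built of subunit c, and ATP5MC1, ATP5MC2 and ATP5MC3 encode the same mature protein. ATP5MC1 read 3692 and 4513 in DU145 and 2304 and 3397 in DU145-DR cells (-0.54 ± 0.23, limma adjusted p = 0.19, 0.0138 with the block). ATP5MC2 gave -0.45 ± 0.26 (limma adjusted p = 0.361, 0.0388 with the block). ATP5MC3 was higher on both resistant arrays, at 6339 and 8079 against 4124 and 5753 (0.55 ± 0.22, limma adjusted p = 0.169, 0.00861 with the block), and a second probe set gave 0.51. On replicate 3 the 3 genes gave -0.08, -0.68 and 0.12, so the signs held and the sizes of ATP5MC1 and ATP5MC3 did not. ATP5F1C, the gamma subunit, is read here by a dim probe set (0.09 ± 0.38). Its 3 brighter probe sets, prone to cross-hybridization by their name, gave 0.45 to 0.52, but only 0.04 to 0.18 on replicate 3.

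**Figure D3:**
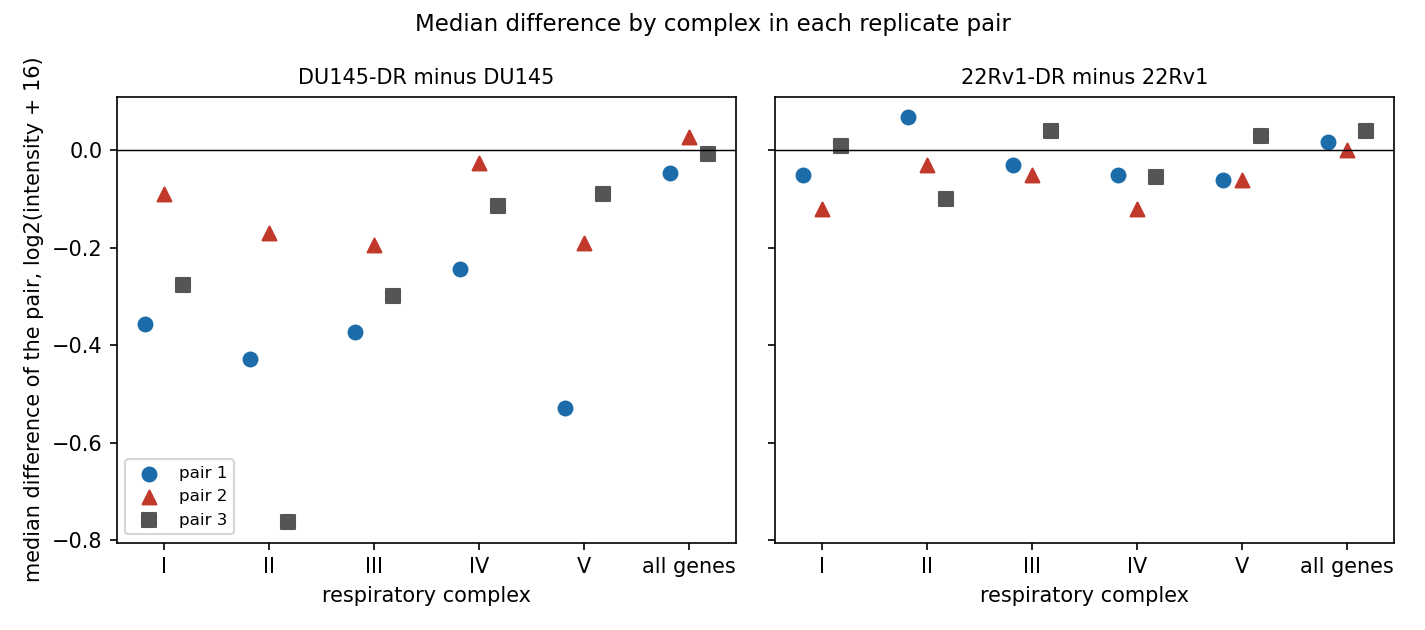
Median difference, resistant minus parental on the log2(intensity + 16) scale, of the subunit genes of each complex and of all genes in each replicate pair. In DU145 the medians of all 5 complexes lay below those of all genes in each pair, from -0.02 to -0.76, while in 22Rv1 they lay between -0.12 and 0.07.

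In 22Rv1-DR cells no member passed the test. limma gave 0 calls among 65 members, with 1 lower and 0 higher at an unadjusted p under 0.05, where 16.2% of all genes had such a p. Over all genes 3.14% rose and 2.43% fell. The change was negative in 44 of 65 members, against 48.4% of all genes tested, so a negative lean was not particular to DU145-DR cells. Its size was small. The members' median was -0.07, against 0.01 for all genes, and the medians of the 3 pairs were -0.04, -0.10 and 0.01. In 21 members all 3 pairs were negative and in 12 all 3 were positive, where the shares of all genes were 22.3% and 27.5%. On replicate 3, 31 of the 65 members were negative.

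The largest fall was that of NDUFV1, the flavin-binding subunit of complex I. Its intensity was 2180, 2135 and 2487 in 22Rv1 and 1541, 1468 and 1859 in 22Rv1-DR cells, lower in every pair and without overlap within an array type. The change was -0.52 ± 0.21 (SE, n = 2 per group; limma adjusted p = 0.268, 0.0315 with the block). NDUFS1, its neighbour in complex I, gave -0.37 ± 0.21 (limma adjusted p = 0.464, 0.0388 with the block) and -0.14 on replicate 3. These members had almost the same values in DU145-DR cells, -0.52 and -0.38.

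NDUFS4, an accessory subunit, read 1113, 1152 and 2106 in 22Rv1 and 1541, 1563 and 2062 in 22Rv1-DR cells. It gave 0.45 ± 0.23 (limma adjusted p = 0.394, 0.0205 with the block), but replicate 3 gave -0.03. The dim probe set of ATP5F1C gave 0.73 ± 0.38 (limma adjusted p = 0.414, 0.00638 with the block) and -0.33 on replicate 3, and the brighter probe sets gave 0.01 to 0.05. With the block these were the 4 calls, 2 up and 2 down, where 12.7% of all genes rose and 9.52% fell. With only the 4 arrays of the line, NDUFS4 and NDUFV1 passed. In the other complexes the lowest and highest values were -0.03 for SDHC and 0.09 for SDHD, -0.23 for UQCR10 and 0.19 for UQCR11, -0.29 for COX6B1 and 0.05 for COX6C, and -0.31 for ATP5MC1 in complex V.

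The change did not differ between the lines for any member by limma's interaction test, with 0 calls, although 6 had an unadjusted p under 0.05 (5 more positive in 22Rv1 and 1 more negative) and 8.0% of all genes passed. The 3 members that fell in DU145-DR gave differences, 22Rv1 change minus DU145 change, of 0.87 ± 0.38 for NDUFS7 (limma adjusted p = 0.229, 0.0293 with the block), 0.85 ± 0.27 for UQCRC1 (0.102, 0.00839 with the block) and 0.71 ± 0.32 for ATP5F1D (0.245, 0.0342 with the block). With the block 13 members passed as more positive and 2, ATP5MC3 and NDUFA6, as more negative, where 16.6% and 15.1% of all genes did. The dimmer probe set of NDUFA6 differed by -1.99 ± 0.29 (limma adjusted p = 0.00575) and that of UQCRB by -1.67 ± 0.30 (limma adjusted p = 0.016). In 22Rv1 cells the former read 630 and 662 in parental and 350 and 352 in resistant cells, so its sign was opposite in the 2 lines.

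The lines themselves were compared after quantile normalization, because the deposited values differ in floor and scale. The 5th percentile of an array was 35.8 to 38.6 in DU145 and DU145-DR and 11.5 to 12.3 in 22Rv1 and 22Rv1-DR on replicates 1 and 2. As deposited, 83.4% of all genes differed between the parental lines and 83.2% between the resistant lines, with a median of -1.31 (log2) in both. On that scale 30 members were lower and 1 higher in 22Rv1 than in DU145 cells, and 23 lower and 4 higher in 22Rv1-DR than in DU145-DR cells. The members' medians of -0.54 and -0.45 were above those of all genes.

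After quantile normalization 30 members were higher and 3 lower in parental 22Rv1, where 22.5% of all genes were higher and 21.6% lower. In the resistant lines 38 were higher and 1 lower, where 22.7% and 22.3% of all genes were. The direction of most calls thus turned with the scaling. On replicate 3, whose 4 arrays had 5th percentiles of 10.9 or 11, 58 of 65 members were higher in 22Rv1 than in DU145 as deposited and 61 in 22Rv1-DR than in DU145-DR, against 50.3% and 53.4% of all genes. Across the 65 members the quantile-normalized difference of the parental lines correlated with that on replicate 3 at r = 0.676, a description over genes measured on different arrays.

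**Figure D4:**
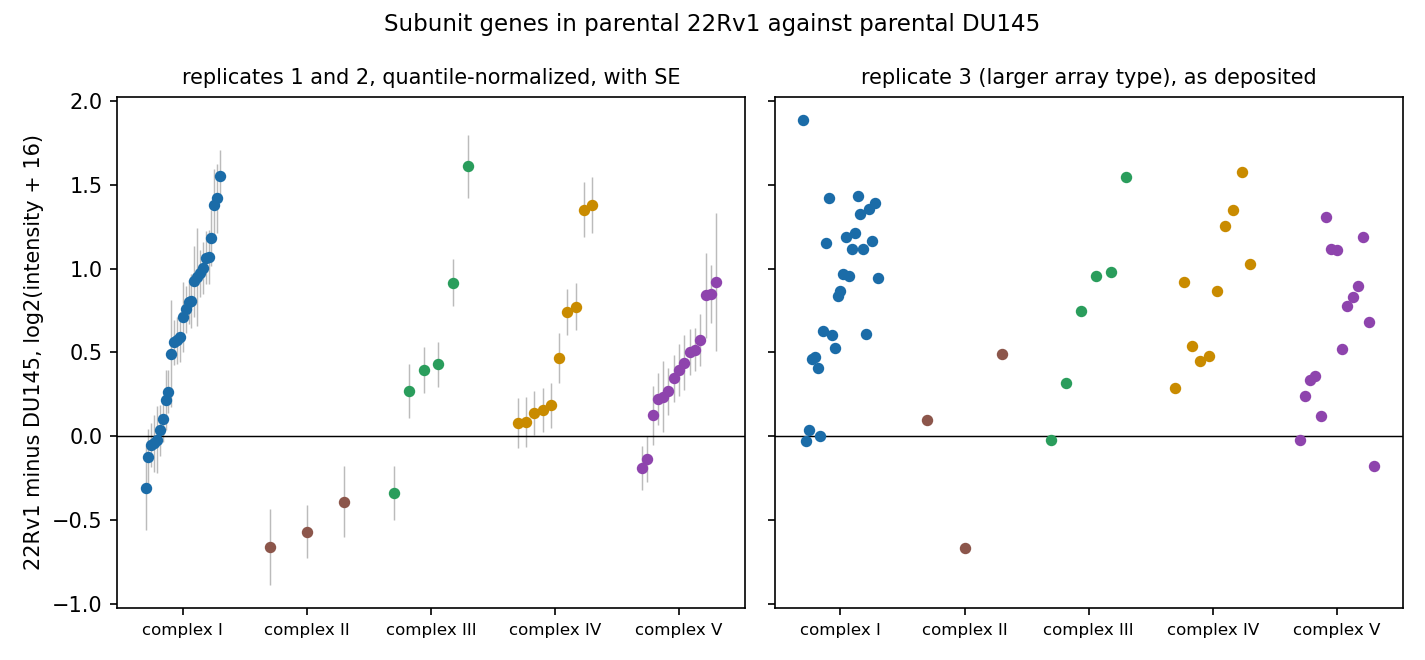
Difference of each tested subunit gene, parental 22Rv1 minus parental DU145 on the log2(intensity + 16) scale, by complex: replicates 1 and 2 after quantile normalization with SE (left) and replicate 3 as deposited (right). Most genes of complexes I, III, IV and V lay above 0 in both, while SDHA of complex II lay below 0 in both (-0.57 and -0.66).

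The largest quantile-normalized differences of the parental lines were those of UQCRC1 (1.61 ± 0.19, limma adjusted p = 0.000453), NDUFB11, NDUFA3 and NDUFB2 of complex I (1.55, 1.42 and 1.38) and COX7C of complex IV (1.38). On replicate 3 these gave 1.55, 0.95, 1.39, 1.17 and 1.03. UQCRC1 read 1687 and 1758 in DU145 and 2610 and 2195 in 22Rv1 cells, so it was higher in 22Rv1 also as deposited. In the resistant lines it differed by 2.48 ± 0.19 (limma adjusted p = 5.96e-05), and 2.43 on replicate 3.

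The 3 lower members were COX7A2L, SDHD and SDHA. COX7A2L, the supercomplex factor, read 4300, 6166 and 2896 in DU145 and 1160, 885 and 1771 in 22Rv1 cells, a difference of -1.14 ± 0.19 (limma adjusted p = 0.00277) and -0.70 on replicate 3. SDHA gave -0.57 ± 0.16 (limma adjusted p = 0.0238), and its difference in the resistant lines was 0.12 ± 0.16. SDHD gave -0.66 ± 0.22 (limma adjusted p = 0.0483) but 0.10 on replicate 3. The median of complex II was -0.57, against 0.71 in complex I, 0.41 in III, 0.32 in IV and 0.40 in V. On replicate 3 the median of complex II was 0.10, with SDHC at 0.49, and those of the others were 0.96, 0.85, 0.89 and 0.68.

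Other gene lists around the chain were read against the same 5.52% of all genes that fell in DU145-DR cells. Of 27 tested assembly factors 3 fell (11.1%) and none rose: OXA1L, which inserts proteins into the inner membrane, fell by 1.14 ± 0.23 (limma adjusted p = 0.0167), the copper-delivering factor COX11 by 0.86 ± 0.21 and UQCC1, a factor of complex III, by 0.81 ± 0.21. Replicate 3 gave -1.23, -0.21 and -0.78. Of 17 genes of the citric acid cycle 2 fell (11.8%): IDH2 fell by 1.18 ± 0.21 (limma adjusted p = 0.00868) and DLST by 0.78 ± 0.18, with -1.81 and -0.64 on replicate 3. Of 49 genes of the mitochondrial ribosome MRPS10 and MRPS35 fell in DU145-DR, by 0.99 and 0.76, and MRPL4 in 22Rv1-DR cells, by 0.96. Replicate 3 gave 0.13 for MRPS10, the opposite sign, -0.71 for MRPS35 and -0.28 for MRPL4. Of 20 genes of glycolysis and 9 other genes of the chain none passed in either line, while 5 and 2 of them were lower in DU145-DR, and 1 and 0 in 22Rv1-DR, at an unadjusted p under 0.05 by limma. In DU145-DR cells the median change was -0.11 for the assembly factors, -0.23 for the citric acid cycle, -0.14 for the mitochondrial ribosome, -0.11 for glycolysis and 0.14 for the other genes of the chain. In 22Rv1-DR cells these medians were -0.03, -0.19, -0.15, -0.21 and 0.01. On replicate 3 the medians, in the same order, were 0.14, 0.01, 0.11, 0.02 and 0.13 in DU145-DR cells. There the negative medians of replicates 1 and 2 did not hold. In 22Rv1-DR cells replicate 3 gave 0.05, -0.08, 0.02, 0.08 and -0.05.

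Among 26 genes of protein import, PMPCB, a subunit of the processing peptidase, fell by 0.97 ± 0.20 in DU145-DR cells and TIMM17B rose by 1.57 ± 0.27 in 22Rv1-DR cells (limma adjusted p = 0.0196 and 0.011). Among 15 carriers and channels, SLC25A20, the carnitine-acylcarnitine carrier, rose in both resistant lines, by 1.22 ± 0.18 and 1.04 ± 0.18 (limma adjusted p = 0.00389 and 0.0102). SLC25A4, an adenine nucleotide carrier, fell by 0.89 ± 0.19 in DU145-DR cells but gave -0.08 on replicate 3. Replicate 3 gave -0.98 for PMPCB, 1.81 for TIMM17B, and 1.48 and 0.57 for SLC25A20. Of 19 regulators of mitochondrial biogenesis, MYC rose by 1.20 ± 0.19 and TFB1M, a mitochondrial rRNA methyltransferase, fell by 0.85 ± 0.20 in DU145-DR cells. Replicate 3 gave 0.10 for MYC and -0.94 for TFB1M. The medians in DU145-DR and 22Rv1-DR cells were 0.08 and -0.06 for import, -0.09 and -0.04 for carriers and channels, and -0.11 and 0.15 for the regulators. On replicate 3 they were 0.69 and -0.06, 0.01 and 0.01, and 0.26 and 0.15.

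The chromosomes of the members were looked at after their values were seen. In DU145-DR cells the median change of the genes tested on a chromosome ran from -0.30 on chromosome 14 to 0.25 on chromosome 13. In 22Rv1-DR cells the medians of the 22 chromosomes examined, which include X but not every autosome, ran from -0.05 to 0.10. Chromosomes came from the promoters, so members without one, ATP5F1D, COX6C and UQCRB among them, were not placed. For each of the 57 tested members placed, the median was taken over the other genes of its chromosome. The 22 members on chromosomes with a median below 0 in DU145-DR had a median of -0.48 and were negative in 21 cases. On these chromosomes, picked by that median, 52.0% (chromosome 19) to 81.8% (chromosome 14) of all genes tested were negative. The 35 on the others had a median of -0.05 and were negative in 20. On the chromosomes of these 35, 32.98% (chromosome 5) to 50% (chromosome 18) of all genes tested were negative. Both members on chromosome 14, ATP5MJ and NDUFB1, were among the lowest (-0.82 and -0.75), and so was NDUFA9 on chromosome 12. UQCRC1 on chromosome 3 fell where the other genes' median was 0.08. All 7 members placed on chromosome 19 were negative, NDUFS7 (-1.13), NDUFA3 (-0.74) and UQCR11 (-0.67) most, on a chromosome with a median of -0.01. Of the members placed, NDUFS7 and UQCR11 lie in the first 3 Mb of chromosome 19 (GRCh38.p14). The 49 genes tested there had a median of -0.24, 39 were negative, 4 fell and 0 rose by limma's adjusted p. The part of chromosomal position in these values was not tested.

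**Figure D5:**
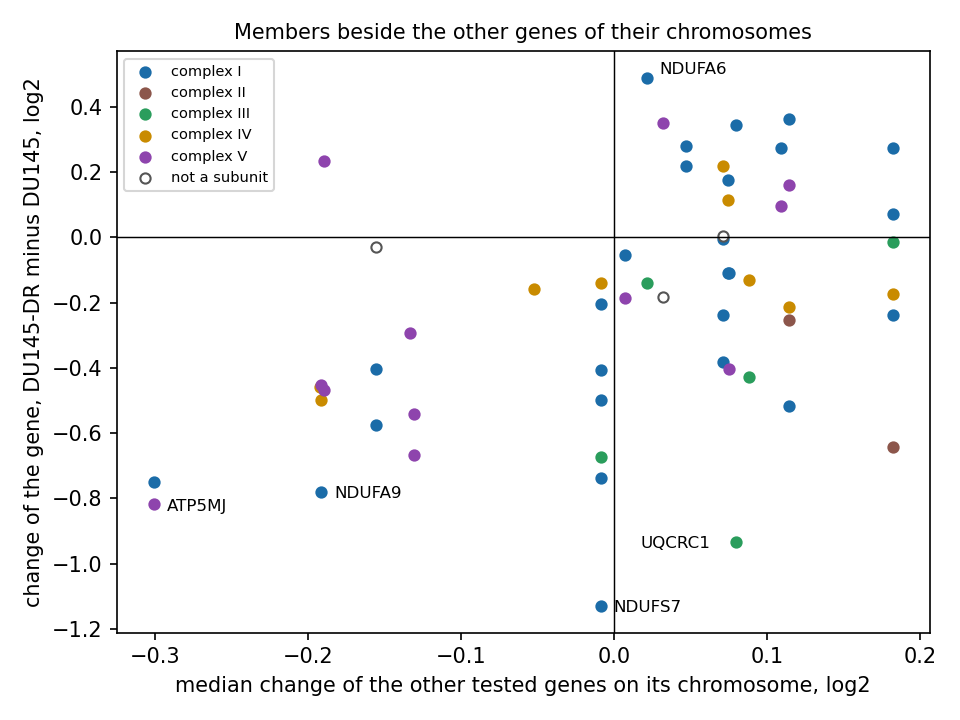
Change of 57 members in DU145-DR cells (vertical axis, log2) against the median change of the other tested genes on the same chromosome (horizontal axis, log2), coloured by complex. Of 22 members on chromosomes with a median below 0, 21 were negative, where 52.0% to 81.8% of all genes tested per chromosome were. Of the other 35 members 20 were negative, where 32.98% to 50% of all genes tested per chromosome were. UQCRC1 lay low on a chromosome with a positive median.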

How the data were processed

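The 12 samples were hybridized to Affymetrix arrays. The authors deposited linear probe-set intensity values, for 22215 probe sets on 8 arrays (replicates 1 and 2) and for 54613 on 4 arrays (replicate 3). The submitters' processing notes name MAS5 and RMA, with roles and scaling not given in the sources used here. Precision is limited by how few arrays there are.

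Of the probe sets of the 8-array table, 19064 had 1 gene symbol in the platform annotation, 1043 several and 2108 none. The 31 of Y-linked or X-inactivation genes were left out. Each gene was read by its brightest probe set not prone to cross-hybridization by its name, or by the brightest prone one where there was no other. Genes were kept where any group's mean was above log2 6.49, the 40th percentile of the table. The fit used log2(intensity + 16) of the 8 arrays and limma 3.58.1 under R 4.3.3 (eBayes, 4 residual and 4.49 prior degrees of freedom, group means, no block), with two-sided tests adjusted by Benjamini-Hochberg over 9706 genes. The code was tested on simulated data.

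Replicate numbers were checked for pairing: deviations of replicate 1 from the group mean correlated at 0.692 (DU145 with DU145-DR) and 0.792 (22Rv1 with 22Rv1-DR), and at 0.0692 to 0.123 across lines. With 2 replicates the second mirrors the first, so each line gives 1 correlation. The fit with line and number as a block had 2 residual and 3.32 prior degrees of freedom. Also tried were other pseudocounts, filters, normalizations, probe-set rules, arrays in the fit, a variance trend and leaving out each array.

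Members and lists were chosen with earlier results of these data known. Members are named if they passed in a line, had the largest rise or fall of their complex, are tissue forms or core subunits, or differed most between the lines. For other lists, up to 4 genes that passed are named. Promoters are those of RefSeq, 1 per symbol, the one with the lowest coordinate.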

Additional observations from a re-analysis of the deposited data

Results flagged for a closer look

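For 11 members the resistant line differed from its parent one way in all 3 DU145 pairs and the other way in all 3 22Rv1 pairs. This is 16.9% of the 65 members, and the same held for 13.2% of all genes tested. limma's interaction test passed for none of them. Values are the 22Rv1 change minus the DU145 change (log2, with SE).

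In 7 of them all DU145 pairs were below 0 and all 22Rv1 pairs above 0. UQCR11 differed by 0.87 ± 0.38, NDUFA5 by 0.82 ± 0.58, ATP5PD by 0.76 ± 0.44 and NDUFB5 by 0.55 ± 0.38. ATP5MC2 differed by 0.52 ± 0.37, ATP5F1E by 0.39 ± 0.35 and the pseudogene ATP5MC2P1 by 0.23 ± 0.30. ATP5MC2 and its pseudogene share sequence, so these readings may not be separate.

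The other 4 were above 0 in all DU145 pairs and below 0 in all 22Rv1 pairs, with differences for NDUFA6 of -0.75 ± 0.26, ATP5MC3 of -0.65 ± 0.32, ATP5PF of -0.32 ± 0.41 and ATP5MG of -0.25 ± 0.34. Brighter ATP5MG probe sets, prone to cross-hybridization by their name, gave -0.03 to -0.04 in DU145, and -0.20 to -0.23 on replicate 3. In 22Rv1 they gave -0.01 to 0.09, and -0.02 to -0.05 on replicate 3. A second ATP5MC3 probe set gave -0.05 in 22Rv1 but 0.08 on replicate 3. The second NDUFA6 probe set kept both signs (1.13 and -0.85). With the replicate block UQCR11, NDUFA6, ATP5MC3 and ATP5PD passed (adjusted p of 0.0123, 0.0143, 0.0167 and 0.0482, limma).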

How the results depend on the processing

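The replicate numbers pair the arrays of a line, and the count of changed members moved most with the replicate block: from 3 to 25 in DU145-DR, from 0 to 4 in 22Rv1-DR and from 0 to 15 for the difference between lines. In DU145-DR the count was 16 after quantile normalization, 5 with the filter at the 60th percentile, 6 when each probe set was fitted on its own, and 0 both with only the 4 arrays of the line and with all 12 arrays. Leaving out 1 array gave 0 to 17. In 22Rv1-DR only the 4 arrays of the line gave 2, and leaving out 1 array gave 0 throughout. For the difference between lines, quantile normalization and single probe sets gave 2 each, averaging the probe sets of each gene gave 1, and leaving out 1 array gave 0 to 6. As deposited, 31 members differed between the parental and 27 between the resistant lines. All 12 arrays gave 3 and 6, and leaving out 1 array 18 to 38 and 19 to 39. Quantile normalization left the count of the parental lines similar and turned its direction. Outside the main, block, quantile-normalized and single probe-set fits, the share of all genes passing is not given. The counts of those other fits, the ones without 1 array among them, are therefore not read as a result. Of the other counts compared, 78 stayed within 1.5 times. Of the values of single members and medians compared, 1259 kept their direction and side of the threshold. Another 24 no longer passed, 34 newly passed and 3 moved, and none of these values reversed as a call. The 3 that moved are the DU145-DR medians without 1 of 3 arrays, and 1 of these, 0.10 without DU145-DR replicate 1, changed sign. Some differences between the lines did reverse as calls under quantile normalization. NDUFS4 in the parental lines went from -0.68 (limma adjusted p = 0.0196) to 0.56 (limma adjusted p = 0.012). ATP5MC1 in the resistant lines went from -0.63 (limma adjusted p = 0.0305) to 0.55 (limma adjusted p = 0.0154). The causes of these shifts were not tested. Intensity near the floor limits COX6A2, COX7A1 and ATP5F1C.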

Other observations

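Members read only on the larger array type, with 1 array per group and no test, included NDUFA12 of complex I, at 6654 in DU145 and 3468 in DU145-DR cells and at 6985 in 22Rv1 and 7538 in 22Rv1-DR cells. NDUFA11 read 2610 and 1278 on one probe set and 3769 and 2896 on a second in DU145 and DU145-DR cells, and 2740 and 2647 on the first in the 22Rv1 pair. NDUFB9 was higher in DU145-DR, at 6123 against 3214. NDUFB10 read 2539 and 2077 on one probe set and 724 and 904 on another, so its probe sets went opposite ways. ATP5MK, a small subunit of complex V, read 7913 and 9410. In all, 14 such genes were read by 19 probe sets.

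The changes of the 65 members in DU145 correlated across genes at 0.841, 0.751 and 0.556 between pairs 1 and 2, 1 and 3, and 2 and 3. Over all genes these were 0.812, 0.730 and 0.661. In 22Rv1 the members gave 0.875, 0.186 and 0.267, where all genes gave 0.943, 0.595 and 0.595. Pairs 1 and 2 share an array type that pair 3 does not, and genes are not independent replicates.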
